A study of Mus musculus with 12 samples.

Results

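Aminoacyl-tRNA synthetases are the enzymes that load each transfer RNA with its amino acid, and their transcripts were followed here across the 4 groups of a macrophage knockdown experiment. The members are listed by gene symbol as cytosolic or mitochondrial synthetases, a rule that uses no measured value, though the family was picked with earlier results of these data known. All 36 were found among the 24421 genes of the count tables, 20 encoding cytosolic enzymes and 16 encoding mitochondrial enzymes, and all 36 were among the 12164 genes with enough counts to be tested. The cells were bone marrow-derived macrophages, primary macrophages grown from marrow progenitors, of male C57BL/6J mice aged 8 weeks. The groups were LPS-treated cells with siEhd1, LPS-treated cells with siControl, resting cells with siEhd1 and resting cells with siControl, with 3 libraries each. The siRNA siEhd1 targets Ehd1, which encodes a membrane-remodelling protein of endocytic recycling, and siControl is the control siRNA. The labels call resting cells M0 and LPS-treated cells M1, and lipopolysaccharide (LPS) is a bacterial cell wall component that activates macrophages. All groups had been transfected, so no untransfected level is given here. The LPS dose and duration, the time after transfection and the siRNA sequences were not given in the sources used here. Nor do the labels say whether replicates were separate mice or separate dishes, so p-values cover the spread between libraries alone, and that spread may be technical.

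Each synthetase activates its amino acid with ATP and transfers it to the matching tRNA, and cytosolic and mitochondrial translation use mostly separate enzymes encoded by separate nuclear genes. In mammals a group of the cytosolic enzymes is held in the multisynthetase complex with scaffold proteins, and the others are free or bind other factors. Gars and Kars are exceptions to the separation by gene, since each encodes the enzyme of both compartments. When uncharged tRNA accumulates or the endoplasmic reticulum is stressed, the kinases GCN2 and PERK raise translation of the transcription factor ATF4, and many cytosolic synthetase genes are known ATF4 targets.

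Library totals lay between 18572725 and 22545272 counts, and the 36 members together took 0.195 to 0.221% of the counts of a library. Levels are given as CPM, library-size-scaled counts that use edgeR's TMM factors. Ehd1 stood at 59.2% of control in resting siEhd1 cells and at 48.7% of control in LPS-treated siEhd1 cells, so the knockdown was partial. The log2 fold changes were -0.76 (SE 0.08, edgeR adjusted p = 5.7e-07) and -1.04 (SE 0.07, edgeR adjusted p = 2.5e-08). LPS-treated cells held more Ehd1 than resting cells, by 3.54 on the log2 scale under siControl and 3.26 under siEhd1. Ehd1 was at 282 to 319 CPM in LPS-treated siEhd1 libraries, against 52.1 to 54.4 CPM in resting siControl libraries. All 8 macrophage markers exceeded 5 CPM on average over the 12 libraries, while the summed markers of neutrophils reached at most 3.97 CPM, of dendritic cells 1.15 CPM and of lymphocytes 0.440 CPM. Stromal and endothelial markers summed to 14.3 to 45.1 CPM, and Kdr was the 1 of these 6 above 5 CPM on average, although Pecam1 reached 7.83 CPM in a single LPS-treated library. In bulk RNA, fewer cells of a type and less RNA per cell cannot be told apart. In resting cells siEhd1 also lowered 5 of the 8 macrophage markers and raised 0 (edgeR), against 14.2% and 14.0% of all tested genes. Their sums were 19643 to 21024 CPM in siEhd1 libraries and 23702 to 24381 CPM in siControl libraries. The stromal and endothelial sum was likewise 14.3 to 21.0 CPM in resting siEhd1 libraries and 26.6 to 27.6 CPM in resting siControl libraries. In LPS-treated cells edgeR called 0 of the 8 macrophage markers, against 8.54% of all tested genes. The part of these shifts in the synthetase results was not tested.

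The cytosolic genes were expressed well above the mitochondrial ones. Divided by the length of the longest annotated transcript, resting siControl cells held a median of 18.5 CPM per kb over the 20 cytosolic genes, spanning 9.16 for Yars, the tyrosine enzyme, to 84.9 for Nars, the asparagine enzyme. The 16 mitochondrial genes had a median of 4.25 CPM per kb and spanned 0.267 for Mars2, which charges the mitochondrial methionine tRNA and has a longest transcript of 11294 bases, to 75.1 for Lars2, its leucine counterpart. Lars2 ranked 2nd of all 36 genes per kb in that group and stood far from the other mitochondrial genes. It alone took 41.4 to 62.7% of the summed mitochondrial CPM of a library.

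Lars2 was also the most variable member. Its level was 281, 152 and 246 CPM in the resting siEhd1 libraries, against 255, 349 and 273 CPM in the resting siControl libraries. In LPS-treated cells it was 287, 349 and 265 CPM with siEhd1, against 184, 220.3 and 259 CPM with siControl. The groups overlapped in resting cells and separated narrowly in LPS-treated cells, yet no contrast called the gene, and its SE of 0.24 on the log2 scale was the widest of any member. Its siEhd1 effect was -0.37 at rest (edgeR adjusted p = 0.30) and 0.44 after LPS (edgeR adjusted p = 0.35). Class sums are therefore given without Lars2.

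Averaged over its members on a log2(CPM + 1) scale, the cytosolic class was at 6.07 ± 0.06 in resting siEhd1 cells and 5.93 ± 0.06 in resting siControl cells (SD, n = 3 each). In LPS-treated cells it was at 6.17 ± 0.03 with siEhd1 and 6.25 ± 0.08 with siControl. All 3 resting siEhd1 libraries exceeded all 3 resting siControl libraries, though the closest pair stood at 6.00 in each group, and every LPS-treated library lay above every resting one. The mitochondrial class stayed between 3.78 and 3.89 in all 12 libraries. By the median over members, in place of the mean, this class rose with LPS under both siRNAs, with values given in the last section. Without Lars2, the sum of cytosolic CPM was 7.05 ± 0.38 times the mitochondrial sum in resting siEhd1 cells, against 6.30 ± 0.38 times in resting siControl cells. In LPS-treated cells the ratio was 7.88 ± 0.07 with siEhd1 and 7.92 ± 0.40 with siControl. These class levels describe genes chosen with earlier results known, so they carry no test.

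**Figure D1:**
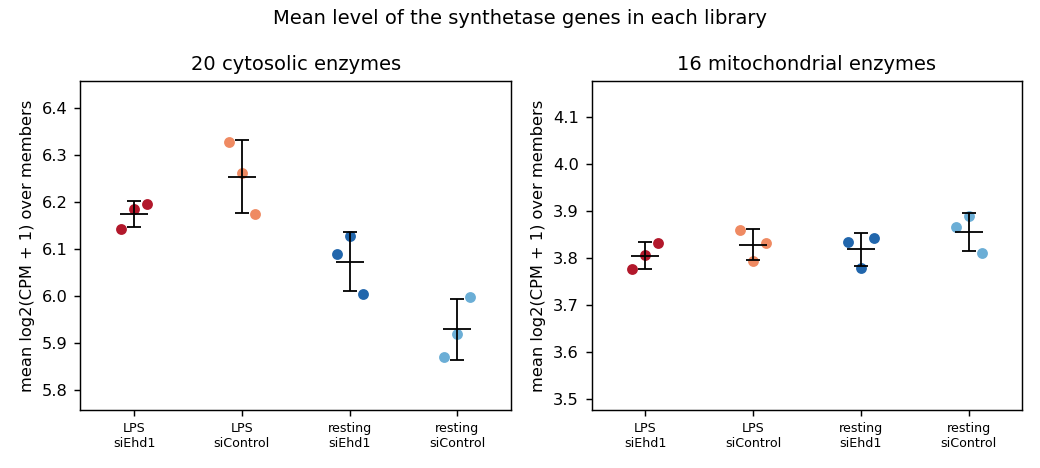
Mean log2(CPM + 1) over the 20 cytosolic enzymes (left) and the 16 mitochondrial enzymes (right) in each library. Points are libraries, bars are the mean ± SD of 3 libraries, and the vertical axes differ in position but span the same range. The cytosolic class is lowest in resting siControl cells (5.93 ± 0.06), and the mitochondrial libraries all lie between 3.78 and 3.89.

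In resting macrophages, knockdown of Ehd1 was accompanied by modestly higher transcripts of cytosolic synthetases. Of the 20 cytosolic genes 10 rose, 1 fell and 9 did not pass the test, whereas 28.2% of all tested genes were called, 14.0% higher and 14.2% lower (edgeR quasi-likelihood test, Benjamini-Hochberg adjustment over 12164 genes, threshold 0.05). Their median log2 fold change was 0.19, against -0.02 over all tested genes. Of the 16 mitochondrial genes 1 rose and 2 fell, with a median of -0.03. Libraries of the groups did not overlap for 12 cytosolic genes that were higher with siEhd1 (21.4% of all tested genes) and for 1 that was lower (22.7% of all tested genes).

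Among the cytosolic genes the largest increases fell on free enzymes. Aars (ENSMUSG00000031960.14, chr8:111033144-111057664, plus strand, GRCm38), which charges alanine tRNA, stood at 107, 112 and 93.8 CPM in the siEhd1 libraries, against 70.1, 79.9 and 86.7 CPM in the siControl libraries (log2 fold change 0.41, SE 0.08, edgeR adjusted p = 0.00062). Gars (ENSMUSG00000029777.10, chr6:55038007-55079500, plus strand), the glycine enzyme, stood at 65.2, 67.4 and 62.7 CPM with siEhd1, against 47.2, 48.5 and 52.4 CPM with siControl (0.40, SE 0.06, edgeR adjusted p = 6.4e-05). Yars stood at 36.1, 37.0 and 31.7 CPM with siEhd1, against 23.4, 26.6 and 30.0 CPM with siControl (0.39, SE 0.09, edgeR adjusted p = 0.0022). In each of these genes every siEhd1 library lay above every siControl library, and siEhd1 replicate 3 was the lowest of its group while siControl replicate 3 was the highest of its own.

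Vars, Tars and Cars rose by less and depended on single libraries. Vars, the valine enzyme, had 70.3, 68.5 and 61.2 CPM with siEhd1 and 52.4, 55.2 and 57.1 CPM with siControl (0.28, SE 0.08, edgeR adjusted p = 0.0098). Tars, the threonine enzyme, had 51.0, 55.9 and 48.8 CPM with siEhd1 and 44.5, 44.4 and 46.7 CPM with siControl (0.20, SE 0.06, edgeR adjusted p = 0.019). Cars, the cysteine enzyme, had 39.2, 35.1 and 36.1 CPM with siEhd1 and 28.9, 32.6 and 34.0 CPM with siControl (0.21, SE 0.07, edgeR adjusted p = 0.026). The groups did not overlap in any of the 3 genes. The calls of Vars and Cars were lost without siControl replicate 1 or without siEhd1 replicate 1, and that of Tars without siControl replicate 1, siControl replicate 2 or siEhd1 replicate 2. Over all alternatives run, the edgeR, DESeq2 or limma-voom adjusted p ranged between 0.0016 and 0.054 for Vars, 0.0073 and 0.11 for Tars, and 0.015 and 0.17 for Cars. Of the other free enzymes Wars, the tryptophan enzyme that is interferon-inducible in human cells, had 45.7, 47.9 and 47.2 CPM with siEhd1 and 47.0, 45.3 and 48.8 CPM with siControl. Its groups overlapped throughout, and the interval of its difference was narrow (log2 fold change -0.00, 95% interval -0.13 to 0.13, edgeR adjusted p = 0.99). Farsa, Farsb, Hars, Nars and Sars, for phenylalanine, histidine, asparagine and serine, ranged between -0.00 and 0.18 and did not pass the test.

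Of the 8 enzymes of the multisynthetase complex, 4 rose and 1 fell, and of the 12 free cytosolic genes 6 rose and 0 fell. Over all tested genes 14.0% were called higher and 14.2% lower (edgeR). Mars, the methionine enzyme, had 49.6, 49.3 and 43.8 CPM in siEhd1 libraries and 38.1, 38.7 and 41.8 CPM in siControl libraries (0.27, SE 0.07, edgeR adjusted p = 0.0057). Eprs, the fused glutamate and proline enzyme, had 119.9, 125 and 113 CPM with siEhd1 and 93.9, 104 and 102 CPM with siControl (0.25, SE 0.06, edgeR adjusted p = 0.0019). Rars, the arginine enzyme, had 58.0, 59.6 and 55.4 CPM with siEhd1 and 45.2, 48.1 and 52.2 CPM with siControl (0.25, SE 0.06, edgeR adjusted p = 0.0042). In each of these genes the lowest siEhd1 library exceeded the highest siControl library. Dars, the aspartate enzyme, had 77.6, 82.4 and 77.7 CPM with siEhd1 and 67.9, 71.0 and 68.9 CPM with siControl, again without overlap (0.19, SE 0.05, edgeR adjusted p = 0.0079). Kars, Lars and Qars, for lysine, leucine and glutamine, had log2 fold changes of 0.04, 0.10 and 0.00 and were not called.

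Iars (ENSMUSG00000037851.13, chr13:49682100-49734267, plus strand, GRCm38), the isoleucine enzyme of the complex, went the opposite way. It stood at 52.1, 55.0 and 45.0 CPM in the resting siEhd1 libraries, against 71.8, 72.7 and 73.4 CPM in the resting siControl libraries. The siControl libraries lay close together, and the highest siEhd1 library was well below them (log2 fold change -0.52, SE 0.07, edgeR adjusted p = 1.5e-05). No alternative run changed this call.

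**Figure D2:**
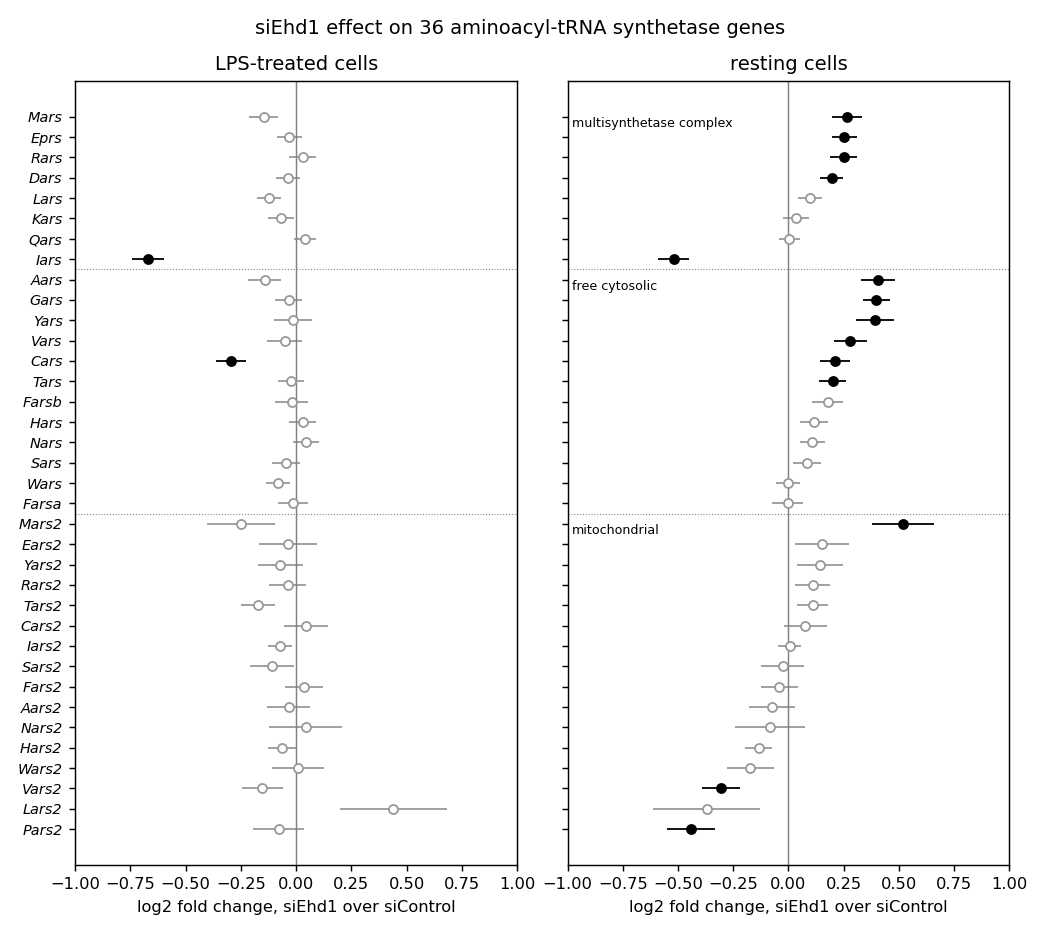
Log2 fold change of siEhd1 over siControl for each of the 36 genes in LPS-treated (left) and resting cells (right). Points are edgeR estimates with bars of 1 SE, filled where the adjusted p is under 0.05, and genes are ordered by the resting effect within the multisynthetase complex, the free cytosolic enzymes and the mitochondrial enzymes. Most filled points of resting cytosolic genes lie at 0.19 to 0.41, Iars lies at -0.52, and in LPS-treated cells Iars (-0.67) and Cars (-0.30) are the filled points.

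Promoter windows of Aars, Gars, Tars and Yars, which rose, and of Iars, which fell, are shown because ATF4 is known to bind, with C/EBP factors, a composite element whose core reads TGATGNAA. A window of 300 bases that starts upstream of the annotated start and ends shortly after it was searched on both strands, so that the reverse complement of the core also counts. RefSeq promoters of build GRCm38.p6 were at hand for 27 of the 36 members. The core occurred in 5 of 13 cytosolic promoters (38.5%) and in 0 of 14 mitochondrial promoters, against 2.83% of the 9316 tested genes with a promoter and 3.97% of all 32851 promoters of this length. Among the cytosolic promoters it occurred in 4 of 7 whose gene rose with siEhd1 in resting cells and in 1 of 6 of the others, which was Iars. In the lines below, written along the gene's own strand, capitals mark the core.
Aars, chr8:111033840-111033869, plus strand, at base 10 after the start: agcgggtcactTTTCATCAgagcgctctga
Gars, chr6:55037960-55037989, plus strand, 30 bases before the start: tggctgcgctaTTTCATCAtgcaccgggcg
Iars, chr13:49682126-49682155, plus strand, at base 8 after the start: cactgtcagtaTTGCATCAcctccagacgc
Tars, chr15:11399655-11399684, minus strand, 15 bases before the start: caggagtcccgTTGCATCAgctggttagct
Yars, chr4:129189895-129189924, plus strand, at base 4 after the start: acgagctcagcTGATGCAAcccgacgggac
All 5 windows shown lie close to the start of the RefSeq promoter entry, and of these Yars is the one that carries the core in the forward direction. Offsets count from that RefSeq start, which differs from the GENCODE gene starts, such as 111033144 for Aars. The Aars promoter holds another match that is not shown, at chr8:111033719-111033748, 112 bases before the start. Cars, Hars, Lars, Nars, Rars, Vars, Wars, Hars2 and Pars2 were not searched. A match describes the letters of the window and does not show that a factor binds there.

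Among the mitochondrial genes in resting cells, Mars2 rose and Pars2 and Vars2 fell. Mars2 had 4.31, 4.74 and 3.92 CPM with siEhd1 and 2.91, 3.20 and 2.94 CPM with siControl, without overlap (0.52, SE 0.14, edgeR adjusted p = 0.0087). Pars2, the mitochondrial proline enzyme, had 5.25, 4.91 and 4.94 CPM with siEhd1 and 6.69, 7.19 and 6.63 CPM with siControl, also without overlap (-0.44, SE 0.11, edgeR adjusted p = 0.0047). Vars2, the mitochondrial valine enzyme, had 14.3, 14.8 and 13.8 CPM with siEhd1 and 19.9, 16.2 and 16.9 CPM with siControl. All siControl libraries of Vars2 were higher, replicate 1 most of all (-0.30, SE 0.09, edgeR adjusted p = 0.012), and the call was lost without siControl replicate 1, with an adjusted p between 0.0081 and 0.10 over all alternatives run. Mars2 is, with Nars2, the least counted member, at 47 to 111 counts per library, which limits its precision. The other 13 mitochondrial genes were not called.

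In LPS-treated macrophages, siEhd1 raised no synthetase. Of the 20 cytosolic genes 0 rose, 2 fell and 18 did not pass the edgeR test, against 8.54% of all tested genes called, 4.44% higher and 4.10% lower. None was higher at an unadjusted p under 0.05 either, and DESeq2 and limma-voom also called 0 higher. The median log2 fold change was -0.03 over the cytosolic genes, -0.05 over the mitochondrial genes and -0.00 over all tested genes. Of the mitochondrial genes edgeR, DESeq2 and limma-voom called 0 in either direction, with 1 lower at an unadjusted p under 0.05 by edgeR and limma-voom and 0 by DESeq2. Libraries did not overlap for 4 cytosolic genes that were lower and 0 that were higher (12.6% of all tested genes in either direction).

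Iars fell again and was the member with the largest siEhd1 effect among LPS-treated cytosolic genes. It stood at 54.2, 54.5 and 56.0 CPM in the siEhd1 libraries, against 96.5, 85.5 and 79.9 CPM in the siControl libraries. The siEhd1 libraries lay close together and far below the lowest siControl library (log2 fold change -0.67, SE 0.07, edgeR adjusted p = 5.9e-06). The siEhd1 effect on Iars did not differ measurably between LPS-treated and resting cells (difference -0.15, 95% interval -0.38 to 0.08, edgeR adjusted p = 0.45). Cars also fell, to 42.3, 41.0 and 44.7 CPM with siEhd1, against 51.7, 50.1 and 55.0 CPM with siControl, without overlap (-0.30, SE 0.07, edgeR adjusted p = 0.0069). Both calls held under every alternative run. Aars, at 175, 191 and 187 CPM with siEhd1 and 212, 207 and 192 CPM with siControl, was not called (-0.14, SE 0.07, edgeR adjusted p = 0.28), and its nearest libraries of the 2 groups were almost level. Wars was not called (-0.08, SE 0.05, edgeR adjusted p = 0.42).

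The 3 prime UTR of Iars is shown because it holds GCCTTGT, a 7-base sequence taken up from earlier results of these data. In GENCODE vM21 transcripts of GRCm38, searched on the transcript strand, 4 of the 36 members carried it (11.1%), against 14.5% of the 11236 tested genes searched. They were 1 of 20 cytosolic genes and 3 of 16 mitochondrial genes. In the windows below, which run along the transcript, capitals mark the 7 bases.
Iars, chr13:49734120-49734148, plus strand: atatatatatgGCCTTGTaaaacagattt
Mars2, chr1:55247671-55247699, plus strand: gattttacataGCCTTGTtgtttttacta
Tars2, chr3:95743927-95743955, minus strand: acaaatcatctGCCTTGTatcttattctt
Yars2, chr16:16308438-16308466, plus strand: tttgtttcctcGCCTTGTcaaaatcctgc
Of these 4 genes Iars fell with siEhd1 in resting and in LPS-treated cells. Mars2 rose in resting cells and had a log2 fold change of -0.25 in LPS-treated cells (edgeR adjusted p = 0.38). Tars2, the mitochondrial threonine enzyme, had log2 fold changes of 0.11 in resting and -0.17 in LPS-treated cells, and Yars2, its tyrosine counterpart, had 0.14 and -0.07, none of them called. Whether the sequence has a part in the fall of Iars was not tested.

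The siEhd1 effect was then compared between states, as the effect in LPS-treated cells minus the effect in resting cells. Ehd1 itself was higher in LPS-treated than in resting cells under both siRNAs, as given above. This difference was below 0 for 19 of the 20 cytosolic genes, Qars being the exception at 0.04, and it was called for 5, all lower, against 6.04% of all tested genes called, 3.12% higher and 2.93% lower. By edgeR, DESeq2 and limma-voom 0 cytosolic genes were called higher, and 0 were higher at an unadjusted p under 0.05. The median was -0.22 over the cytosolic genes, 0.00 over the mitochondrial genes and 0.00 over all tested genes. Called were Aars (-0.55, SE 0.11, edgeR adjusted p = 0.0041), Cars (-0.51, SE 0.10, edgeR adjusted p = 0.0026), Gars (-0.43, SE 0.09, edgeR adjusted p = 0.0046), Mars (-0.41, SE 0.10, edgeR adjusted p = 0.011) and Eprs (-0.28, SE 0.08, edgeR adjusted p = 0.037). Gars shows the pattern most plainly, since its LPS-treated libraries overlapped at 61.8, 70.6 and 68.7 CPM with siEhd1 and 71.3, 69.7 and 64.8 CPM with siControl. Cars differed from the others in that siEhd1 raised it in resting cells and lowered it in LPS-treated cells. The call of Eprs was lost in both fits with a replicate block and when any 1 of 8 libraries was left out (all except resting siControl replicates 2 and 3, resting siEhd1 replicate 3 and LPS-treated siControl replicate 3), and its adjusted p ranged between 0.019 and 0.12. Yars had a difference of -0.41 and missed the threshold (edgeR adjusted p = 0.055).

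Of the mitochondrial genes the difference called Mars2 (-0.77, SE 0.21, edgeR adjusted p = 0.032). In LPS-treated cells Mars2 had 2.55, 3.19 and 2.696 CPM with siEhd1 and 3.30, 3.67 and 3.09 CPM with siControl, so that the groups overlapped slightly there. This call was lost under DESeq2, under a replicate block within each table and when any 1 of 7 libraries was left out (resting siControl replicate 1 or 3, resting siEhd1 replicate 1 or 2, LPS-treated siControl replicate 2, LPS-treated siEhd1 replicate 1 or 3), with an adjusted p between 0.027 and 0.092 over all alternatives run.

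**Figure D3:**
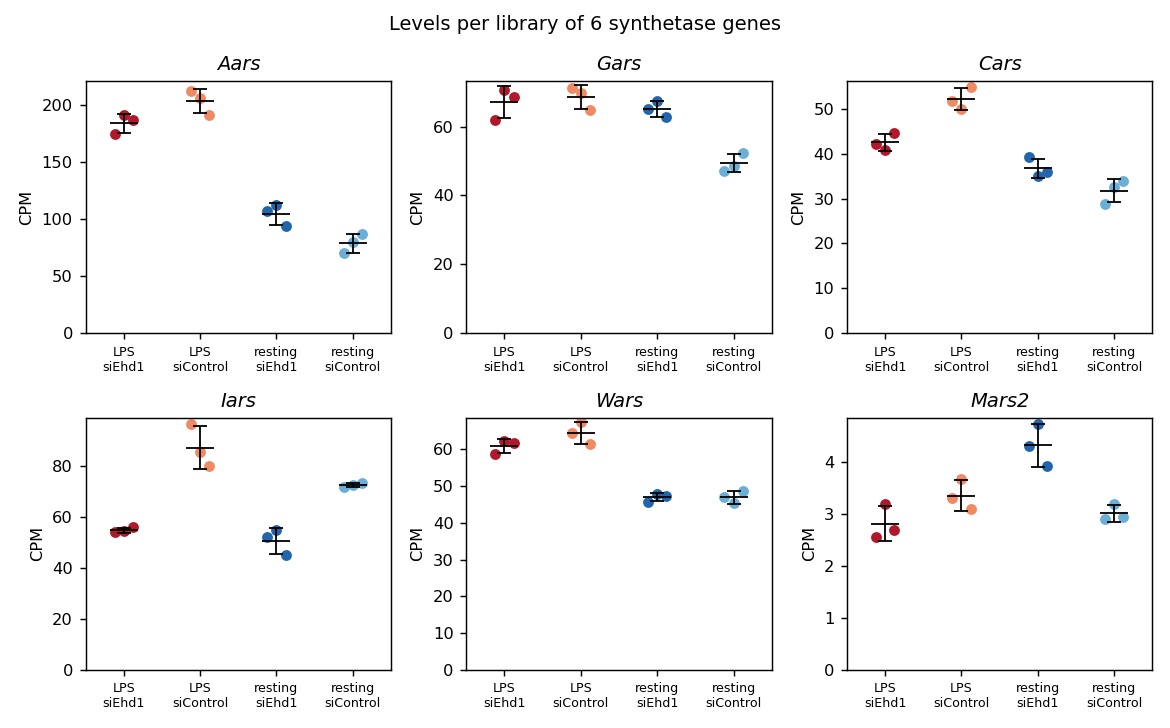
CPM in each library for Aars, Gars, Cars, Iars, Wars and Mars2, with the mean ± SD of 3 libraries per group and axes that start at 0. Aars, Gars and Cars are lowest in resting siControl cells, Iars is lower with siEhd1 in both states, and Wars differs between LPS-treated and resting cells while its siEhd1 and siControl libraries lie close together.

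LPS itself raised most cytosolic synthetases in control cells. Under siControl, 15 of the 20 cytosolic genes were higher in LPS-treated than in resting cells and 2 were lower, against 68.8% of all tested genes called, 34.8% higher and 34.0% lower (edgeR). Their median log2 fold change was 0.32, compared with -0.01 over all tested genes. Of the 16 mitochondrial genes 2 were higher and 4 lower, with a median of -0.02. Libraries did not overlap for 15 cytosolic genes that were higher (35.5% of all tested genes) and 2 that were lower (35.3%). Resting and LPS-treated libraries were deposited as separate tables, and an effect of LPS cannot be told apart from any difference in how the 2 sets were handled. The siControl LPS contrast shares its resting libraries with the resting siEhd1 contrast and its LPS-treated libraries with the LPS-treated siEhd1 contrast.

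Aars showed the largest LPS response of all members. It reached 212, 207 and 192 CPM in LPS-treated siControl libraries, against 70.1, 79.9 and 86.7 CPM in resting siControl libraries (1.37, SE 0.08, edgeR adjusted p = 1.1e-11). Cars reached 51.7, 50.1 and 55.0 CPM after LPS, against 28.9, 32.6 and 34.0 CPM at rest (0.72, SE 0.07, edgeR adjusted p = 7.2e-09). Farsa, a subunit of the cytosolic phenylalanine enzyme, reached 67.3, 57.8 and 55.3 CPM after LPS, against 41.6, 38.5 and 43.2 CPM at rest (0.55, SE 0.07, edgeR adjusted p = 6.4e-07). None of these genes overlapped between the states. Farsb, the other subunit of the same enzyme, had a log2 fold change of -0.05 and was not called (edgeR adjusted p = 0.56). Mars had 61.4, 58.1 and 51.8 CPM after LPS and 38.1, 38.7 and 41.8 CPM at rest (0.53, SE 0.07, edgeR adjusted p = 6.6e-07). Yars had 38.8, 39.7 and 33.8 CPM after LPS and 23.4, 26.6 and 30.0 CPM at rest (0.49, SE 0.09, edgeR adjusted p = 5.7e-05). Both were higher in every LPS-treated library than in any resting library. Wars rose to 64.6, 67.4 and 61.3 CPM, against 47.0, 45.3 and 48.8 CPM at rest (0.45, SE 0.05, edgeR adjusted p = 2.9e-07). Gars, Tars, Rars, Eprs, Sars, Lars, Hars, Iars and Kars rose by 0.18 to 0.47, and the call of Kars was lost with upper quartile scaling, without resting siControl replicate 1 and without LPS-treated siControl replicate 1 (adjusted p between 0.0045 and 0.18 over all alternatives run).

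Dars and Qars of the multisynthetase complex were lower after LPS, while the other 6 members of the complex were higher. Over all tested genes 34.8% were called higher and 34.0% lower (edgeR). Dars had 58.3, 55.7 and 61.5 CPM after LPS and 67.9, 71.0 and 68.9 CPM at rest under siControl (-0.24, SE 0.05, edgeR adjusted p = 0.0004). Qars had 118, 121 and 111 CPM after LPS and 132, 132 and 138 CPM at rest (-0.20, SE 0.05, edgeR adjusted p = 0.00094). In both genes every LPS-treated library was below every resting library. Nars and Vars, both free enzymes, were not called and had log2 fold changes of -0.01 and 0.01.

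Aars2, the mitochondrial alanine enzyme, rose with LPS like its cytosolic namesake but by less. It had 15.04, 14.4 and 14.0 CPM after LPS and 10.6, 9.16 and 8.78 CPM at rest under siControl (0.61, SE 0.10, edgeR adjusted p = 1.9e-05). Yars2 rose by 0.37 (SE 0.10, edgeR adjusted p = 0.0038). Wars2, the mitochondrial tryptophan enzyme, fell to 6.51, 5.50 and 5.95 CPM after LPS, against 8.41, 8.68 and 7.72 CPM at rest (-0.47, SE 0.11, edgeR adjusted p = 0.00085), opposite in sign to Wars. Vars2 had 14.5, 12.9 and 12.5 CPM after LPS and 19.9, 16.2 and 16.9 CPM at rest (-0.41, SE 0.09, edgeR adjusted p = 0.0004), and Pars2 had 5.72, 5.402 and 5.14 CPM after LPS and 6.69, 7.19 and 6.63 CPM at rest (-0.34, SE 0.11, edgeR adjusted p = 0.011). These 3 genes did not overlap between states. Hars2, the mitochondrial histidine enzyme, had 28.2, 28.1 and 30.8 CPM after LPS and 33.8, 33.2 and 30.9 CPM at rest (-0.17, SE 0.06, edgeR adjusted p = 0.02). Its call was lost without the filter on low counts and when resting or LPS-treated siControl replicate 1 or 2 was left out, with an adjusted p between 0.0011 and 0.084 over all alternatives run.

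Under siEhd1 the signed log2 LPS effect was lower than under siControl for 19 of the 20 cytosolic synthetases. The gap came through smaller increases, through larger decreases as for Dars, or, as for Vars, through a decrease called under siEhd1 only. Of the 20 cytosolic genes 8 were higher and 4 lower in LPS-treated than in resting siEhd1 cells, against 67.0% of all tested genes called, 32.9% higher and 34.0% lower (edgeR). Libraries did not overlap for 10 that were higher (35.2% of all tested genes) and 4 that were lower (36%). The median was 0.10, compared with -0.02 over all tested genes. The 2 LPS contrasts share no library, and the test of their difference is the one given above as the difference of the siEhd1 effects, which called 5 cytosolic genes. All 8 genes higher under siEhd1 were also higher under siControl, and the other 7 that were higher under siControl were not called under siEhd1. With upper quartile scaling, which moved the median of all genes by -0.11 and the share of higher among called genes to 38.4% in place of 49.2%, 4 cytosolic genes were higher and 5 lower.

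Aars remained the most responsive cytosolic gene, at 175, 191 and 187 CPM in LPS-treated siEhd1 libraries, against 107, 112 and 93.8 CPM in resting siEhd1 libraries (0.82, SE 0.07, edgeR adjusted p = 1.6e-08). Farsa had 56.6, 61.4 and 60.7 CPM after LPS and 42.8, 39.5 and 40.7 CPM at rest (0.54, SE 0.07, edgeR adjusted p = 8.7e-07). Wars had 58.6, 62.2 and 61.7 CPM after LPS and 45.7, 47.9 and 47.2 CPM at rest (0.37, SE 0.05, edgeR adjusted p = 4.8e-06). In all 3 genes the states did not overlap, and for Farsa and Wars the difference from the effect under siControl was -0.01 and -0.08 on the log2 scale (edgeR adjusted p = 0.98 and 0.63). Tars had 59.9, 61.4 and 62.4 CPM after LPS and 51.0, 55.9 and 48.8 CPM at rest (0.24, SE 0.06, edgeR adjusted p = 0.0016). Cars, Rars, Hars and Sars rose by 0.19 to 0.21, and these 4 calls were the ones lost with upper quartile scaling, where the adjusted p reached 0.18 to 0.25. The call of Hars was also lost without resting siEhd1 replicate 3, and that of Sars without that library or without LPS-treated siEhd1 replicate 1.

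Gars, Eprs, Mars and Yars, which LPS raised under siControl, had log2 fold changes of 0.04 to 0.12 under siEhd1 and were not called. Iars had 54.2, 54.5 and 56.0 CPM after LPS and 52.1, 55.0 and 45.0 CPM at rest under siEhd1, with overlapping libraries (0.11, SE 0.07, edgeR adjusted p = 0.17). Dars was lower after LPS, at 57.3, 58.2 and 55.6 CPM, against 77.6, 82.4 and 77.7 CPM at rest (-0.47, SE 0.05, edgeR adjusted p = 1e-07). Vars was also lower, at 48.4, 56.2 and 55.5 CPM after LPS, against 70.3, 68.5 and 61.2 CPM at rest (-0.32, SE 0.08, edgeR adjusted p = 0.0012). Neither gene overlapped between states. Farsb and Qars fell by 0.25 and 0.17 on the log2 scale, so that the subunits Farsa and Farsb were called in opposite directions under siEhd1.

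Of the 16 mitochondrial genes under siEhd1, 2 were higher and 5 lower after LPS, against 32.9% and 34.0% of all tested genes. Aars2 had 13.3, 13.2 and 16.2 CPM after LPS and 8.29, 9.52 and 9.32 CPM at rest, close to its response under siControl (0.65, SE 0.10, edgeR adjusted p = 1e-05). Fars2, the mitochondrial phenylalanine enzyme, had 18.8, 18.5 and 19.2 CPM after LPS and 13.8, 16.1 and 16.9 CPM at rest (0.27, SE 0.09, edgeR adjusted p = 0.0098). Neither overlapped, and the call of Fars2 was lost without resting siEhd1 replicate 1 and with upper quartile scaling (adjusted p between 0.0051 and 0.11 over all alternatives run). Mars2 had 2.55, 3.19 and 2.696 CPM after LPS and 4.31, 4.74 and 3.92 CPM at rest (-0.62, SE 0.15, edgeR adjusted p = 0.00091). Tars2 had 18.4, 18.5 and 19.8 CPM after LPS and 23.1, 21.8 and 24.1 CPM at rest (-0.29, SE 0.07, edgeR adjusted p = 0.002). Both fell without overlap and under every alternative run. Wars2 and Vars2 fell by 0.29 and 0.26, at 6.29, 5.42 and 6.37 CPM and at 11.2, 12.3 and 12.4 CPM after LPS, against 7.64, 6.79 and 7.58 CPM and 14.3, 14.8 and 13.8 CPM at rest. The call of Wars2 was lost under DESeq2, without the filter on low counts, without resting siEhd1 replicate 1 or 3 and without LPS-treated siEhd1 replicate 2, and that of Vars2 without resting siEhd1 replicate 2 or LPS-treated siEhd1 replicate 1. Iars2 fell by 0.13 on the log2 scale, a call that was lost under 14 of 20 alternatives, among them both fits with a replicate block, which leave 4 mitochondrial genes lower in place of 5.

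**Figure D4:**
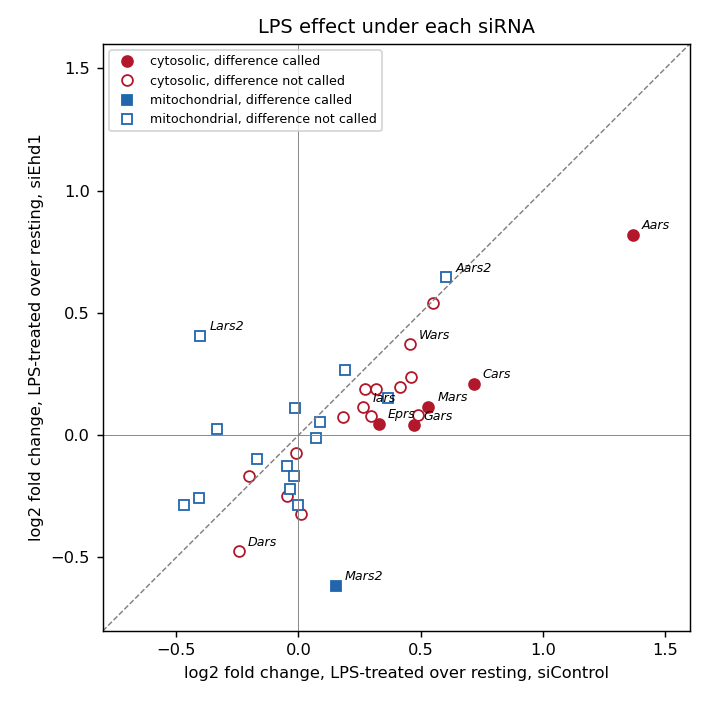
Log2 fold change of LPS-treated over resting cells for the 36 genes, under siControl on the horizontal axis and under siEhd1 on the vertical axis. The dashed line marks equal effects, circles are cytosolic and squares mitochondrial enzymes, and filled symbols are the 6 genes whose difference was called by edgeR. Cytosolic genes lie mostly below the line, with Aars at 1.37 and 0.82, and Mars2 is the filled square at 0.15 and -0.62.

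In 13 pairs, a cytosolic gene and a mitochondrial gene share the root of their name and charge with the same residue, such as Aars and Aars2. In resting cells the siEhd1 effect was higher for the cytosolic gene in 11 of the 13 pairs, with Iars and Mars as the exceptions. In LPS-treated cells it was higher in 8 of 13. The LPS effect was higher for the cytosolic gene in 13 of 13 pairs under siControl (median difference 0.43 on the log2 scale) and in 9 of 13 under siEhd1 (median difference 0.20). The phenylalanine, glutamate and proline enzymes do not form such pairs and are not in these counts. With LPS under siControl, Farsa at 0.55 lay above Fars2 at 0.19 while Farsb at -0.05 lay below it, and Eprs at 0.33 lay above Ears2 at -0.03 and Pars2 at -0.34. These values describe genes measured in the same libraries and carry no test. By catalytic fold, which divides the synthetases into class I and class II, cytosolic genes of both classes rose with siEhd1 in resting cells. There 5 of 9 cytosolic class I genes rose and 1 fell, and 4 of 10 cytosolic class II genes rose and 0 fell. Of all tested genes 14.0% were called higher and 14.2% lower (edgeR). Eprs, which joins a domain of each class, rose as well. Of the mitochondrial genes 1 of 9 in class I rose and 1 fell, and 0 of 7 in class II rose and 1 fell.

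Factors allied to tRNA charging were called about as often as all genes with siEhd1 in resting cells, where 28.2% of all tested genes were called, 14.0% higher. Of 21 such genes, comprising scaffold proteins of the complex, mitochondrial amidotransferase subunits, editing factors and elongation factors, 5 rose and 0 fell with siEhd1 in resting cells. Aarsd1, an alanyl-tRNA editing factor, rose by 0.40 (SE 0.08, edgeR adjusted p = 0.0013). Qrsl1, a subunit of the amidotransferase that forms mitochondrial glutaminyl-tRNA, rose by 0.53 (SE 0.13, edgeR adjusted p = 0.0037). Eef1a1, the factor that delivers charged tRNA to the ribosome, rose by 0.24 (SE 0.06, edgeR adjusted p = 0.009). The scaffold genes Aimp1 and Aimp2 had log2 fold changes of 0.02 and 0.18 and were not called. In LPS-treated cells and in the difference of effects, edgeR called 0 of the 21, against 8.54% and 6.04% of all tested genes, though Yrdc and Dtd1 had an adjusted p of 0.064 and 0.054 with log2 fold changes of -0.31 and -0.57 in LPS-treated cells. With LPS under siControl 9 rose and 4 fell, against 34.8% and 34.0% of all tested genes, among them Aimp2 (0.74, SE 0.08, edgeR adjusted p = 1.4e-07), Yrdc (0.84, SE 0.10, edgeR adjusted p = 3.7e-07) and Gatc (-0.57, SE 0.07, edgeR adjusted p = 7.7e-07), which act in the complex, in tRNA modification and in the amidotransferase. Under siEhd1 7 rose and 5 fell with LPS, against 32.9% and 34.0% of all tested genes, led by Dtd1 (-1.21), Gatc (-0.51) and Aimp2 (0.56).

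Some known targets of ATF4 outside the synthetases also rose with siEhd1 in resting cells. Of 19 tested genes of such a list, 9 rose and 0 fell with siEhd1 in resting cells, against 14.0% and 14.2% of all tested genes, and the median log2 fold change was 0.36, against -0.02 over all tested genes. Slc7a5, a transporter of large neutral amino acids, averaged 7.34 ± 0.68 CPM with siEhd1 and 2.33 ± 0.55 CPM with siControl (SD, n = 3 each; 1.65, SE 0.16, edgeR adjusted p = 1.6e-07). Atf4 itself averaged 91.8 ± 2.06 CPM with siEhd1 and 72.0 ± 6.63 CPM with siControl (0.35, SE 0.06, edgeR adjusted p = 0.00031). Asns, asparagine synthetase, averaged 16.2 ± 2.24 CPM with siEhd1 and 7.64 ± 2.51 CPM with siControl (1.09, SE 0.17, edgeR adjusted p = 0.00052). In LPS-treated cells 0 of the 19 rose and 2 fell, against 4.44% and 4.10% of all tested genes, Sesn2 (-0.36, SE 0.08, edgeR adjusted p = 0.0048) and Atf5 (-0.30, SE 0.07, edgeR adjusted p = 0.0071). The difference of effects called 7 of the 19, all lower, against 2.93% of all tested genes called lower, with Slc7a5 at -1.71, Atf4 at -0.51 and Asns at -1.44. With LPS 10 rose and 6 fell under siEhd1, where 67.0% of all tested genes were called, and 14 rose and 3 fell under siControl, where 68.8% were called. The stress protein gene Nupr1 rose by 3.77 under siEhd1 and by 3.58 under siControl, and Pck2, the mitochondrial form of phosphoenolpyruvate carboxykinase, had log2 fold changes of -1.42 and -1.50 under siEhd1 and siControl. The list was chosen with earlier results of these data known, and its counts are a description.

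Some counts are uncertain because the strand setting of the counting was not given in the sources used here. Exons of 9 members overlap a gene of the count table. Aars shares 1326 exonic bases with Exosc6 on the same strand, and Exosc6 had a smaller LPS effect under siControl (0.35, SE 0.10, edgeR adjusted p = 0.0042). Hars and Hars2 overlap by 195 bases on opposite strands, Mars overlaps Ddit3 by 68 bases, and Iars2 overlaps Rab3gap2 by 2034 bases. Ddit3, an ATF4 target, had a log2 fold change of -0.02 with siEhd1 in resting cells, where Mars rose by 0.27. With LPS under siControl Ddit3 rose by 0.31 (edgeR adjusted p = 7.2e-05), where Mars rose by 0.53. With LPS under siEhd1 Ddit3 rose by 0.44 (edgeR adjusted p = 7.7e-07), where Mars was not called (0.12). The part of the overlap in the Mars counts was not tested.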

How the data were processed

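PolyA RNA of 12 mouse macrophage libraries was measured by RNA sequencing. The values are raw counts as the authors deposited them, in separate tables for resting and LPS-treated cells. The submitters' processing notes name mm10 and, in no stated order, R 4.4.2, DESeq2 1.46.0, featureCounts 2.20.0, STAR 2.7.6a, cutadapt, Trim Galore 0.6.3 and FastQC 0.10.1. Annotation, strand setting and handling of multiply mapped reads were not given in the sources used here. Columns were matched to samples by library name, with 0 columns unused.

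Counts were tested with edgeR 4.0.16 in R 4.3.3. Genes passed filterByExpr by group (minimum count 10, minimum total 15), which removed at most 0.0394% of the counts of a library. TMM factors were used, and the robust quasi-likelihood model of the 4 group means had 8 residual degrees of freedom, and p-values were adjusted by Benjamini-Hochberg over 12164 genes with a threshold of 0.05. Each SE was taken from the fold change and the F statistic (its size over the root of F, log2 scale), and intervals are at 95%. The procedure was tested on simulated data. Labels give every group replicate numbers 1 to 3 without saying that a number marks a shared source. Deviations from the group means correlated at 0.11, 0.36 and 0.17 between same-numbered resting and LPS-treated siEhd1 libraries, so that by a limit of 0.1 in every pair the numbers pair this contrast alone, although resting siEhd1 replicate 1 correlated more with LPS-treated siEhd1 replicate 3 (0.12). Pairs of libraries within a group differed by more than sampling noise and none were identical.

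The members, the gene lists, the promoter element and the 7-base sequence were chosen with earlier results of these data known. Members given per library are those called in a siEhd1 contrast or in the difference, the 6 called per direction with the largest change in each LPS contrast, and Iars and Wars; from each list up to 3 called genes per contrast were named by smallest p, and Aimp1, Dtd1 and Yrdc in the siEhd1 contrasts, Aimp2 at rest, Exosc6 and Ddit3 were chosen after their values were seen. Alternatives were DESeq2 1.42.0, limma-voom (limma 3.58.1), DESeq2 size factors, upper quartile factors, no filter, only the compared groups, the replicate number as a block, and each library left out. Sequences came from RefSeq (GRCm38.p6) and GENCODE vM21.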

Additional observations from a re-analysis of the deposited data

Results flagged for a closer look

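The siEhd1 effect differed between LPS-treated and resting cells for 6 synthetase genes and for 3 ATF4-linked genes named above, by edgeR's test of the difference itself (effect in LPS-treated minus effect in resting cells, log2 scale). Among the synthetases the difference was -0.55 for Aars (adjusted p = 0.0041), -0.51 for Cars (adjusted p = 0.0026), -0.43 for Gars (adjusted p = 0.0046), -0.41 for Mars (adjusted p = 0.011), -0.28 for Eprs (adjusted p = 0.037) and -0.77 for Mars2 (adjusted p = 0.032). Among the ATF4-linked genes it was -1.71 for Slc7a5 (adjusted p = 0.00011), -0.51 for Atf4 (adjusted p = 0.0013) and -1.44 for Asns (adjusted p = 0.0036). The calls of Eprs and Mars2 were lost under 10 and 9 of 19 alternatives. All 9 differences were negative, 6.04% of all tested genes were called in this contrast, and the cause was not tested.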

How the results depend on the processing

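No member changed sign in any contrast it was called in, under any alternative run. Of the recomputed values for named genes, called or not, 1307 kept their side of the threshold and 65 lost a call. The mitochondrial count in the difference was 0 in place of 1 under DESeq2 and under a replicate block within each table. For LPS under siEhd1, upper quartile scaling gave 4 cytosolic genes higher, 1 mitochondrial gene higher and 8 lower, and DESeq2 and no filter each gave 3 mitochondrial genes lower. With the median over members in place of the mean, the mitochondrial level difference was 0.034 for resting siEhd1, against -0.037 with the mean. For the difference of effects it was -0.081 against 0.013. With LPS it was 0.20 against -0.027 under siControl and 0.11 against -0.014 under siEhd1. The cytosolic minus mitochondrial value was 0.071 against 0.353 for LPS under siControl, and -0.074 against 0.115 for LPS under siEhd1. The class gap after LPS thus depended on the choice of mean or median, and the cause was not tested. Leaving out 1 library at a time gave 1 to 2 mitochondrial genes lower in resting cells (1 without siControl replicate 1), 607 to 1100 genes called in LPS-treated cells (607 without LPS-treated siEhd1 replicate 1), 0 to 1 mitochondrial genes lower and 453 to 783 genes called in the difference (453 without resting siEhd1 replicate 1, 473 without resting siControl replicate 1), and 1 to 2 mitochondrial genes higher and 3 to 5 lower for LPS under siEhd1 (1 and 3 without resting siEhd1 replicate 1, and 3 lower without resting siEhd1 replicate 2 or 3 or LPS-treated siEhd1 replicate 1). Same-numbered siEhd1 and siControl libraries did not deviate together (correlations -0.13, -0.17 and -0.30 at rest, -0.12, 0.20 and 0.06 after LPS), nor did LPS-treated and resting siControl libraries (0.0071, -0.022 and -0.18). At rest, however, siControl replicates 1, 2 and 3 correlated with siEhd1 replicates 3, 1 and 2 (0.32, 0.24 and 0.34). The same resting siControl libraries also correlated with LPS-treated siEhd1 replicates 3, 1 and 2 (0.18, 0.15 and 0.32). No fit blocked on this matching, so a shared source of those libraries was not tested. With the number as a block, LPS under siEhd1 lowered 4 mitochondrial genes in place of 5 and no other member count of that contrast changed, 10 cytosolic genes rose in resting cells as before, and 4 in place of 5 were called in the difference. Low counts limit Mars2 (47 to 111 per library) and Nars2 (57 to 90 per library). Leaving out Lars2, or Gars and Kars, alternatives chosen after seeing the data, gave a resting siEhd1 difference of cytosolic minus mitochondrial mean level of 0.16 and 0.17, against 0.18 with all members.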
